A study of Arabidopsis thaliana with 4 samples.

Results

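The genes described here are those whose transcripts were higher after 30 than after 10 min of horizontal placement in both flanks, lower and upper, of the Arabidopsis inflorescence stem. They were chosen by their measured values. A gene probe had to lie well above background in both colours of all 4 arrays. Its log2 processed signal, less the median of its channel over all gene probes, was averaged over the 2 arrays of each time. The 30 min mean then had to exceed the 10 min mean by at least 0.6 in each flank. Of 21500 gene probes 18192 were well above background throughout, and 397 of these passed. The rule leaves out the SAUR, IAA, ZAT, VSP, RGL, GASA, APS and NIMIN families and ribosomal protein genes. That removed 12 probes, 5 of them for ribosomal proteins, and left 385 members. Of the members 351 named 1 locus each, 5 named several loci and 29 named none. A symbol was found for 155.

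The study used inflorescence stems of the ecotype Col of Arabidopsis thaliana, the flowering shoots of this small crucifer. Seeds on plates were first held at 4 °C for 3 days. Seedlings then had 10 days in continuous light at 23 °C and were moved to soil, with continuous white light and the same temperature. Plants with a primary stem of 4 to 8 cm were laid on their side in dim light without direction for 10 or 30 min. All 4 kinds of tissue came from such stems, so an upright stem was not among the groups used here. The top 5 mm was discarded, and the 3 cm below was split by hand along its length into its lower and upper flank. Each array compared the flanks of 1 time in 2 colours, and there were 2 arrays for each time. Cy5 carried the lower flank on replicate 1, and the dyes were swapped on replicate 2. The replicates are biological by the labels, yet the labelling protocol has every cRNA made with either dye. It thus remains unsettled whether new plants went into the swapped arrays.

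A stem laid on its side bends upward. Starch-filled plastids settle in its endodermis, auxin comes to be more abundant on the lower side, and that side grows faster. Transcripts that differ between the flanks are the usual object of such an experiment. Transcripts that are higher at 30 min in both flanks, described here, may or may not also differ between the flanks. In this design the time on the side, the time in dim light and the array cannot be told apart. In pieces of whole stem, moreover, more cells of a type and more RNA per cell cannot be told apart.

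The difference between 30 and 10 min is called the rise here, in log2 units of the level relative to the channel median. Because the rule used it, it is described without a test. The rises of the members had a median of 0.75 in the lower flank and 0.76 in the upper, and reached 2.23 and 2.94. Over all 18192 probes the medians were 0.02 and 0.01, with standard deviations of 0.371 and 0.344. A rise at or over the threshold in both flanks was found for 2.18% of these probes, and 2.81% were lower by as much in both. A mean rise of 1 log2 unit or more was reached by 52 members, and 7 reached 1.5. In 364 members both 30 min values lay above both 10 min values in each flank, as they did in 23.0% of all probes. The flanks of 1 time were read from the same arrays, so that a member's rises in the lower and the upper flank are not independent of each other. They lay within 0.3 of each other in 365 members, and 236 members had the larger rise in the upper flank. The lower-flank rise less the upper-flank rise had a median of -0.030 in members and -0.011 over all probes. Its standard deviations were 0.160 and 0.169, so these counts do not set the members apart. Just inside the threshold were AT1G60590, a polygalacturonase-like gene, with rises of 0.6001 and 0.8445, AT1G29820 with 0.6002 and 0.6327, and FLA6 with 0.601 and 0.6038 in the lower and upper flank. Just outside it were AT3G13950 with 0.5998 and 0.6004, AT1G76350 with 0.5993 and 0.6467, and GMD1 with 0.7403 and 0.5989.

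**Figure D1:**
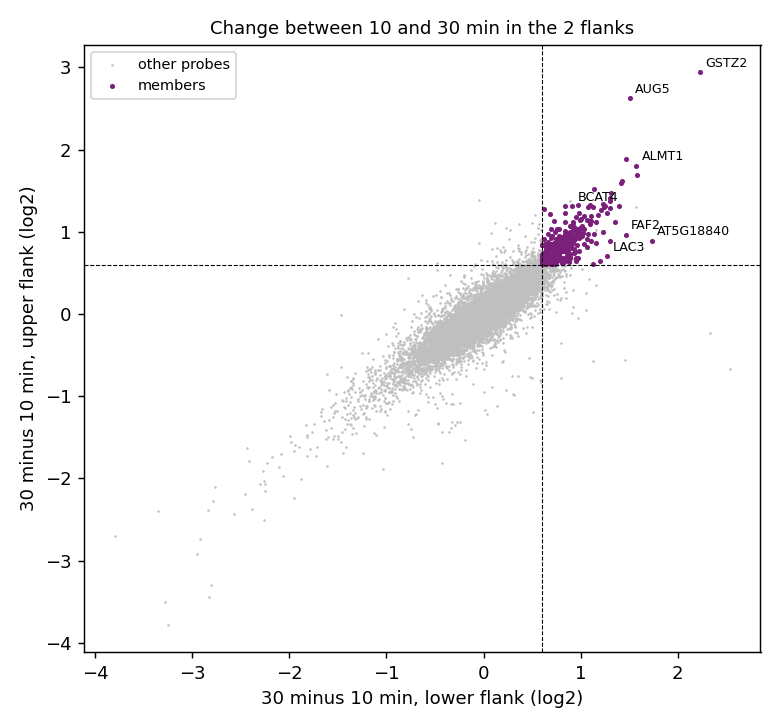
The difference between 30 and 10 min (log2) in the lower flank (horizontal axis) and in the upper flank (vertical axis) is plotted for each probe well above background. Members (purple) lie at or over 0.6 (dashed lines) on both axes by the rule, and most of the 385 lie close to that corner, with GSTZ2 and AUG5 far from the rest.

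The replicates did not carry the rise equally. On replicate 1 alone the members' median rise was 0.960 in the lower flank and 0.987 in the upper, against 0.575 and 0.579 on replicate 2. The threshold was passed in both flanks by 341 members on replicate 1 alone, by 156 on replicate 2 alone and by 113 on each. In 42 members the rise was under 0.3 in both flanks on replicate 2, and in 5 on replicate 1. The members' median level on the 10 min array of replicate 1 was -1.004 in the lower flank and -1.07 in the upper, below the -0.83 and -0.84 of replicate 2. At 30 min the 4 medians lay between -0.118 and -0.097. The members were dim genes for the most part. Their median level over all channels was -0.54, against 0.47 over all probes, and 41.3% of them were among the dimmest 25% of probes. With another background correction (normexp with an offset of 50, then loess and Aquantile) the median rise was 0.50 in the lower flank and 0.51 in the upper, and 94 of the members stayed at or over 0.6 in both. Of these 94, 4 came from the 159 members among the dimmest 25% and 27 from the 42 among the brightest 25%. All 385 had positive values in both flanks there, the lowest being 0.109 and 0.107. These values come from the arrays that chose the members, so their sign is not independent of the choice. For the functional groups below, the number that stayed at or over 0.6 with this correction is given as the number kept.

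**Figure D2:**
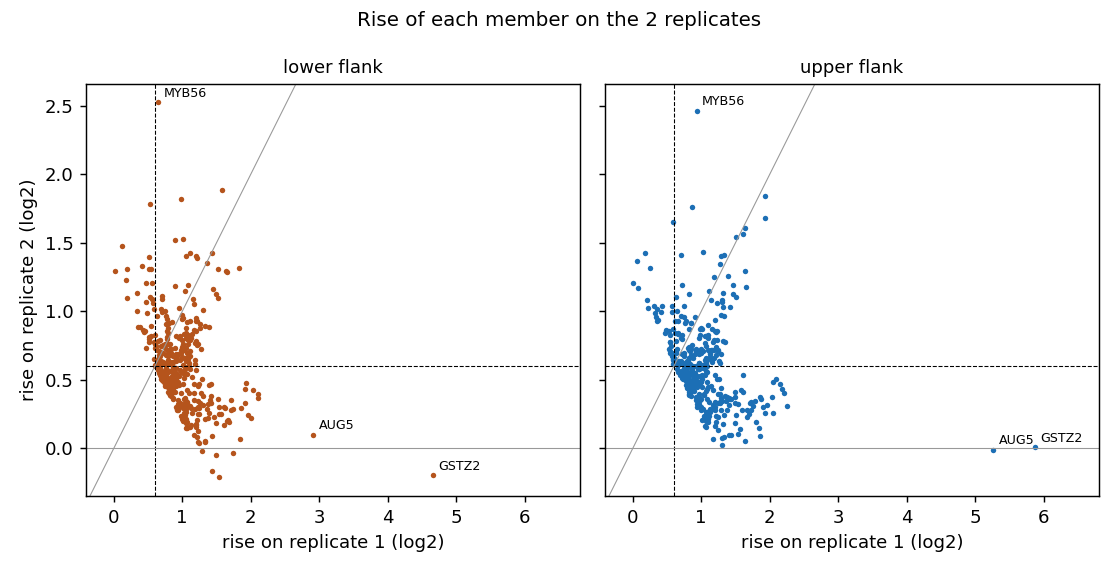
The rise of each member (log2) on replicate 1 is plotted against that on replicate 2, for the lower flank (left) and the upper flank (right); dashed lines mark 0.6 and the grey diagonal marks equal rises. Most points lie below the diagonal, GSTZ2 and AUG5 have their rise on replicate 1 alone, and MYB56 has most of its own on replicate 2.

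The members with the highest mean rise differed in how many arrays carried it. GSTZ2, a glutathione transferase gene of the zeta class, had the highest. Its levels in the lower flank were -3.47 and -2.82 at 10 min and 1.19 and -3.01 at 30 min. In the upper flank they were -3.43 and -2.98 at 10 min and 2.45 and -2.97 at 30 min. Only the 30 min array of replicate 1 was high, and its spot there carried the scanner software's outlier flag. Such a flag stood on 8 members (2.08%) and on 2.95% of all probes. AUG5, a subunit of the augmin complex that branches microtubules, had the same pattern, with 0.99 and 1.002 at 10 min and 3.91 and 1.101 at 30 min in the lower flank and 1.08 and 1.09 at 10 min and 6.34 and 1.08 at 30 min in the upper. Its spot on that array was flagged too, and no other array showed it raised. ALMT1, a malate channel known from roots, was high on both 30 min arrays, with -2.95 and -2.76 at 10 min and -1.13 and -1.44 at 30 min in the lower flank and -2.93 and -2.99 at 10 min and -1.01 and -1.31 at 30 min in the upper. CYP71A25, a cytochrome P450 gene, had rises of 1.47 in the lower flank and 1.89 in the upper, with both 30 min values of each flank above both 10 min values. MYB56, an R2R3 MYB factor, had lower-flank levels of -3.08 and -3.30 at 10 min and -2.44 and -0.78 at 30 min, so that replicate 2 supplied most of its rise. AT5G37970, annotated as a carboxyl methyltransferase of the salicylic acid type, was bright and steady between replicates, with 1.42 and 1.34 at 10 min and 2.85 and 2.77 at 30 min in the lower flank and 1.44 and 1.501 at 10 min and 3.08 and 3.11 at 30 min in the upper. THI2.1, a thionin of defence, had -1.31 and -1.19 at 10 min and 0.21 and 0.12 at 30 min in the lower flank and -1.36 and -1.30 at 10 min and 0.25 and 0.26 at 30 min in the upper. The other 5 of the 12 highest were AT2G33850, AT2G18480 of the mannitol transporter type, AAE12, FMO GS-OX3 and AT5G56840 of the MYB-related type, with rises between 1.14 and 1.52 over both flanks. The spot of AAE12 also carried an outlier flag on 1 array. AT5G46730, a glycine-rich protein gene, had among the largest gaps between its rises, 0.62 in the lower flank and 1.28 in the upper, and its upper-flank levels were -3.62 and -3.26 at 10 min and -1.36 and -2.95 at 30 min.

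Glucosinolate synthesis, with 10 members, was the pathway with the most genes among those named here. Glucosinolates are sulfur-rich defence compounds of crucifers. In the branch concerned here the side chain of methionine is lengthened, the core structure is built, and the chain is then modified. The rises of the 10 genes lay between 0.77 and 1.31 in the lower flank and between 0.88 and 1.37 in the upper. All 10 had both 30 min values above both 10 min values in each flank. So did 364 of all 385 members, which were chosen by these values. Of the 10, 8 passed 0.6 in both flanks on each replicate, and 5 were kept. MYB28, the main activator of the branch, had levels of -1.103 and -1.11 at 10 min and -0.15 and -0.088 at 30 min in the lower flank and -1.102 and -1.14 at 10 min and -0.10 and -0.26 at 30 min in the upper. The replicates of MYB28 lay close together at each time and the times lay far apart. MYB76, a related activator, was dimmer and had rises of 0.95 in the lower flank and 0.94 in the upper. For chain lengthening, BCAT4, the aminotransferase that starts it, had 1.06 and 1.15 at 10 min and 2.18 and 1.86 at 30 min in the lower flank and 1.24 and 1.199 at 10 min and 2.75 and 2.30 at 30 min in the upper. Its folds were 1.88 in the lower flank and 2.48 in the upper. IPMI1, a subunit of the isomerase of the same cycle, had -1.47 and -1.56 at 10 min and -0.022 and -0.40 at 30 min in the lower flank and -1.32 and -1.24 at 10 min and 0.14 and -0.12 at 30 min in the upper. CYP79F1, which turns the lengthened amino acid into an aldoxime, had lower-flank levels of 1.84 and 2.62 at 10 min and 3.17 and 2.84 at 30 min. Here the 10 min arrays were apart from each other and replicate 2 differed little between the times. GSTF11, a glutathione transferase placed in core synthesis, had rises of 1.23 in the lower flank and 1.34 in the upper. In the chain-modifying steps, FMO GS-OX3, which oxidizes the sulfur of the side chain, had -0.15 and -0.17 at 10 min and 1.05 and 1.24 at 30 min in the lower flank and -0.16 and -0.12 at 10 min and 1.18 and 1.29 at 30 min in the upper. FMO GS-OX1, of the same kind, had rises of 0.98 in the lower flank and 1.23 in the upper. AOP2, whose enzyme makes alkenyl chains but is known to be inactive in the Columbia accession, had rises of 1.27 in the lower flank and 1.23 in the upper. AT2G25450, the dioxygenase that hydroxylates such chains, had -0.89 and -0.88 at 10 min and -0.13 and 0.034 at 30 min in the lower flank and -1.02 and -1.04 at 10 min and 0.26 and 0.31 at 30 min in the upper. It stood slightly higher in the lower flank at 10 min and higher in the upper flank at 30 min on every array.

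On the list of glucosinolate genes used for the pathway, 21 were well above background, and 6 were members (IPMI1, AOP2, BCAT4, MYB28, MYB76 and CYP79F1). The list's median rise was 0.44 in the lower flank and 0.63 in the upper, against 0.02 and 0.01 over all probes. The 6 members, chosen by their rise, are part of the list's median, so the comparison is a description only. Of its other genes, SUR1, a C-S lyase of the core, missed the rule by a narrow margin with 0.597 in the lower flank and 0.646 in the upper. MYB34, an activator of the tryptophan branch, had 0.53 and 0.93. The tryptophan-branch enzyme genes CYP79B2 and CYP83B1 went the other way, with -0.82 and -0.91 for the first and -0.89 and -0.54 for the second.

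Members were also found among myrosinase loci and lectins similar to myrosinase-binding proteins, and NAI2 was a member too. Myrosinases act on finished glucosinolates. TGG1, a myrosinase that splits them when tissue is broken, was the brightest member, with 4.50 and 4.47 at 10 min and 5.30 and 5.14 at 30 min in the lower flank and 4.56 and 4.55 at 10 min and 5.33 and 5.17 at 30 min in the upper. The replicates agreed within 0.2 at each time. TGG3, an Arabidopsis myrosinase locus held to be a pseudogene, had 0.91 and 1.02 at 10 min and 1.56 and 1.73 at 30 min in the lower flank. Its sequence is close to those of the other myrosinases, so its probe may read their transcripts too. JAL23 and AT5G49850, jacalin-type lectins similar to myrosinase-binding proteins, had rises of 1.35 in the lower flank and 1.12 in the upper and of 0.84 in the lower flank and 0.82 in the upper respectively. NAI2, needed for the endoplasmic reticulum bodies that store a beta-glucosidase, had -0.19 and 0.29 at 10 min and 1.07 and 1.19 at 30 min in the lower flank. Of these 5 genes 4 passed 0.6 in both flanks on each replicate and 3 were kept.

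**Figure D3:**
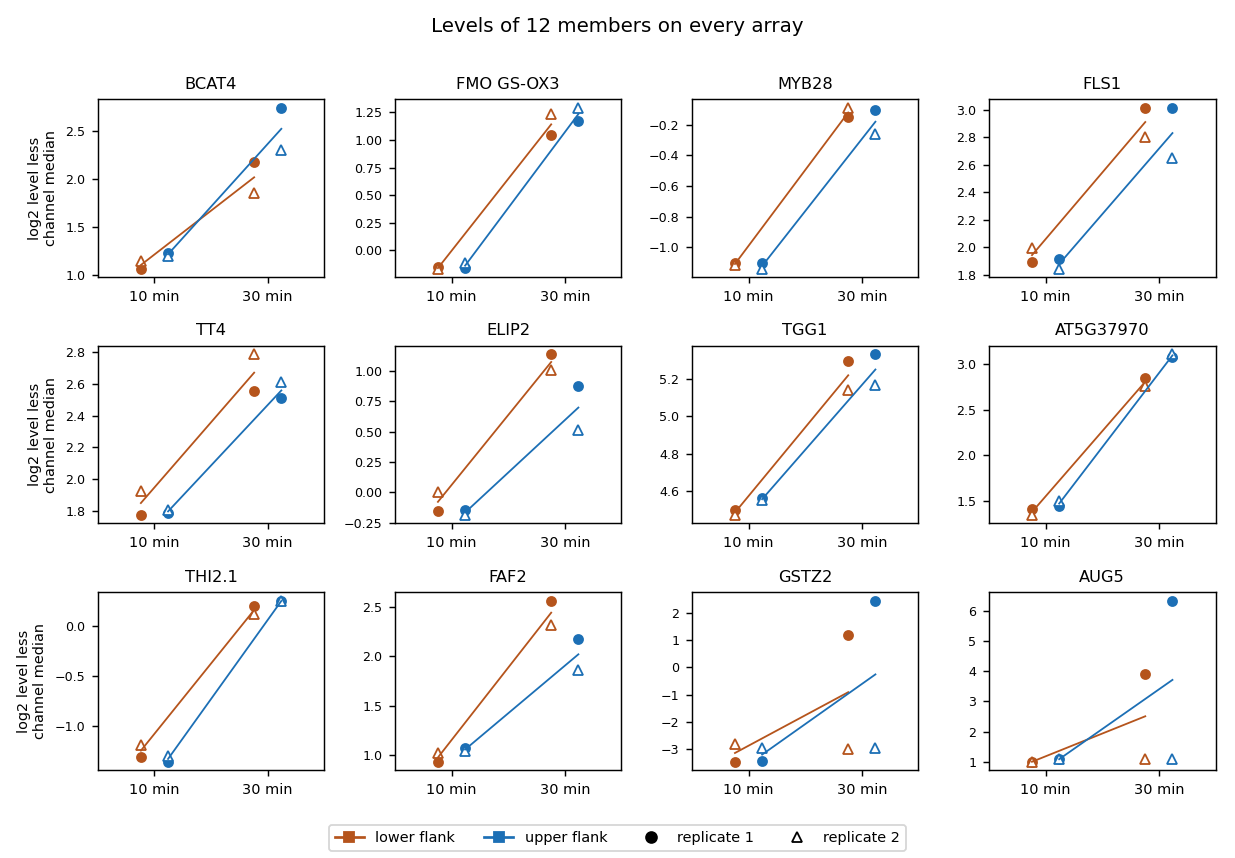
Levels (log2 processed signal less the channel's median) of 12 members are plotted at 10 and 30 min in the lower (brown) and upper (blue) flank, with replicate 1 as circles, replicate 2 as open triangles and a line through the means of the 2 arrays; each panel has its own vertical scale. In the first 10 panels both 30 min values lie above both 10 min values in each flank, and in GSTZ2 and AUG5 only the 30 min array of replicate 1 is high.

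The flavonoid pathway was represented by 4 members that encode enzymes (TT4, TT5, F3H and FLS1) and by CHIL, which helps one of them, and 2 more encode light-protection proteins. Flavonols absorb ultraviolet light, and their synthesis starts with chalcone synthase. TT4, chalcone synthase, had levels of 1.77 and 1.93 at 10 min and 2.55 and 2.79 at 30 min in the lower flank and 1.79 and 1.81 at 10 min and 2.51 and 2.61 at 30 min in the upper. TT5, chalcone isomerase, was one of the steadiest members, with 0.21 and 0.20 at 10 min and 0.80 and 0.86 at 30 min in the lower flank and 0.21 and 0.22 at 10 min and 0.85 and 0.93 at 30 min in the upper. CHIL, a helper protein of the isomerase family, had rises of 0.70 in the lower flank and 0.60 in the upper. F3H, flavanone 3-hydroxylase, had 0.087 and -0.069 at 10 min and 0.98 and 1.11 at 30 min in the lower flank and 0.07 and -0.039 at 10 min and 0.81 and 0.92 at 30 min in the upper. FLS1, flavonol synthase, had 1.89 and 1.996 at 10 min and 3.02 and 2.81 at 30 min in the lower flank and 1.91 and 1.84 at 10 min and 3.01 and 2.65 at 30 min in the upper. In all 5 the times did not overlap in either flank, as in 364 of all 385 members. ELIP1 and ELIP2, early light-induced proteins that protect the photosystems, had lower-flank levels of 0.23 and 0.42 at 10 min and 1.43 and 1.201 at 30 min and of -0.16 and -4.4e-05 at 10 min and 1.14 and 1.01 at 30 min in that order. ELIP2 was less raised in the upper flank, with -0.14 and -0.19 at 10 min and 0.88 and 0.52 at 30 min. Of these 7 genes 5 were kept and 5 passed 0.6 in both flanks on each replicate.

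On the list of phenylpropanoid and flavonoid genes 4 of 16 measured were members, and its median rises were -0.02 and 0.12. MYB12, an activator of flavonol synthesis, had 0.83 in the lower but 0.39 in the upper flank and so was no member. PAL4, of the entry into phenylpropanoids, had -1.05 and -0.82. The light and shade list had 4 members (ELIP1, ELIP2, TT4 and TT5) of 19 measured and 4 that were lower by as much in both flanks. These 4 were PIL6 (-1.23 and -1.20) and PIF4 (-0.91 and -0.86), phytochrome-interacting factors, and PAR1 (-0.74 and -0.96) and BBX28 (-0.84 and -0.82). HY5, a light-signalling factor known to act on TT4 and ELIP2, had -0.06 and 0.05.

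A set of 7 members encodes factors that assemble ribosomes in the nucleolus, apart from the ribosomal proteins that the rule excludes. Their rises were between 0.79 and 0.98 in the lower flank and between 0.64 and 0.76 in the upper, and the lower-flank rise was the higher in all 7. SWA1, needed for processing of the small subunit's RNA, had 1.49 and 1.61 at 10 min and 2.67 and 2.38 at 30 min in the lower flank and 1.61 and 1.65 at 10 min and 2.51 and 2.13 at 30 min in the upper. OLI2, a nucleolar methyltransferase homologue of yeast Nop2, had 1.21 and 1.22 at 10 min and 2.17 and 2.04 at 30 min in the lower flank and 1.28 and 1.32 at 10 min and 2.05 and 1.93 at 30 min in the upper. In both genes the lower flank was below the upper at 10 min and above it at 30 min on each replicate. AT4G26600, related to OLI2, the helicase AT5G54910, the WD-repeat protein AT3G21540, EMB2762 and the RNA cyclase family member AT5G22100 completed the set. All 7 had non-overlapping times in each flank, as had 364 of all 385 members. However, 1 of the 7 passed 0.6 in both flanks on each replicate, since the rises on replicate 2 were smaller, and 4 were kept. None of the 12 measured genes on the ribosome biogenesis list was a member, and its median rises were 0.31 in the lower flank and 0.12 in the upper. The largest mean rises on it were those of FIB2 (1.02 and 0.55), NOP56 (0.78 and 0.47), NAP57 (0.71 and 0.40) and PUM24 (0.61 and 0.34). Each of them passed 0.6 in the lower flank only. No gene of the list was lower by 0.6 or more in both flanks.

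Several members are known from meristems and organ boundaries. CUC1, CUC2 and CUC3, the NAC factors that set the boundaries between organs, were all members, with rises between 0.61 and 0.72 in the lower flank and between 0.63 and 0.75 in the upper. CUC3 had 1.16 and 1.48 at 10 min and 1.81 and 2.27 at 30 min in the lower flank, and CUC1 had 1.43 and 1.59 at 10 min and 2.18 and 2.05 at 30 min. CUC2 was near the bottom of the measured range, and its 10 min values differed by 0.6 or more between replicates. FAF2, one of a small plant family that influences the size of the shoot meristem, had 0.93 and 1.02 at 10 min and 2.56 and 2.32 at 30 min in the lower flank and 1.07 and 1.04 at 10 min and 2.18 and 1.86 at 30 min in the upper. Its folds were 2.76 in the lower flank and 1.95 in the upper. LFY, the floral identity factor, had -0.55 and 0.053 at 10 min and 0.39 and 0.33 at 30 min in the lower flank, so that replicate 1 supplied most of its rise. Of the signalling peptide genes, CLE26 and CLE22 had rises of 0.74 in the lower flank and 0.71 in the upper and of 0.61 in the lower flank and 0.64 in the upper in that order. CLE5 had -2.52 and -0.98 at 10 min and -0.87 and -0.78 at 30 min in the lower flank, where the low value of the 10 min array of replicate 1 made the rise. Of these 8 genes 3 passed 0.6 in both flanks on each replicate, and 2 were kept.

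Hormone enzymes among the members covered both making and removing hormones. For auxin, YUC6 and TAR2 act in synthesis from tryptophan. YUC6 had -2.63 and -2.40 at 10 min and -1.47 and -1.31 at 30 min in the lower flank and -2.43 and -2.46 at 10 min and -1.79 and -1.88 at 30 min in the upper, and TAR2 had -0.38 and -0.45 at 10 min and 0.41 and 0.43 at 30 min and -0.56 and -0.32 at 10 min and 0.11 and 0.28 at 30 min. In both genes the 30 min values were higher in the lower flank on each replicate. IAGLU and UGT74D1, which attach glucose to auxins, had rises of 0.64 in the lower flank and 0.72 in the upper and of 0.77 in the lower flank and 0.80 in the upper in that order. CYP94B1 and CYP94B3, which oxidize the active jasmonate conjugate, had rises of 0.64 in the lower flank and 0.73 in the upper and of 0.61 in the lower flank and 0.71 in the upper. CYP94C1, of the jasmonate and wounding list, went the other way, with -0.87 in the lower flank and -0.83 in the upper. GA2OX8, which inactivates gibberellins, had rises of 0.81 in the lower flank and 0.62 in the upper and was dim. BAS1, which inactivates brassinosteroids, had -1.22 and 0.20 at 10 min and 0.81 and 0.63 at 30 min in the lower flank and -1.27 and 0.22 at 10 min and 0.53 and 0.42 at 30 min in the upper. Its 10 min values were more than 1 unit apart between replicates, and replicate 1 supplied most of its rise. Of these 8 genes 1 passed 0.6 in both flanks on each replicate, and 2 were kept.

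Transcription factor families with 2 or more members were mostly dim. The NF-YA subunits of the CCAAT-binding factor, NF-YA2, NF-YA6 and NF-YA8, had rises between 0.85 and 1.07 in the lower flank and between 0.78 and 1.15 in the upper. NF-YA6 had -1.94 and -1.77 at 10 min and -0.72 and -0.84 at 30 min in the lower flank and -1.86 and -2.02 at 10 min and -0.62 and -0.96 at 30 min in the upper. The WRKY factors WRKY30, WRKY55 and WRKY67, the ethylene response factors ERF10, ERF15 and TINY2 and the cytokinin response factors CRF1 and CRF2 had rises between 0.65 and 0.90 in the lower flank and between 0.63 and 1.002 in the upper. CRF2 had -0.73 and -0.83 at 10 min and -0.20 and 0.27 at 30 min in the lower flank and -0.85 and -0.96 at 10 min and -0.49 and 0.059 at 30 min in the upper. None of these 11 factors was kept. Besides MYB28, MYB76, MYB56 and MYB36, the MYB family gave MYB86, with rises of 0.71 in the lower flank and 0.69 in the upper, and MYB27, with 0.65 in the lower flank and 0.65 in the upper. The MADS factors AGL79 and AGL53 had rises of 0.997 in the lower flank and 1.05 in the upper and of 0.63 in the lower flank and 0.64 in the upper. The receptor-like proteins RLP21 and RLP15 and the dynamin-related DRP4A and DRP4C were further pairs of 1 family, with rises between 0.61 and 0.84.

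Transport proteins made up 13 of the members named by function. NRT1.1, the dual-affinity nitrate transporter and sensor, had 0.53 and 0.67 at 10 min and 1.40 and 1.198 at 30 min in the lower flank and 0.54 and 0.55 at 10 min and 1.77 and 1.41 at 30 min in the upper. PTR5, a dipeptide transporter, had 0.64 and 1.61 at 10 min and 1.89 and 1.86 at 30 min in the lower flank. ABCG20, an exporter placed in suberin formation, had -0.80 and 0.88 at 10 min and 1.15 and 1.12 at 30 min there and -0.78 and 0.88 at 10 min and 1.14 and 1.14 at 30 min in the upper flank. In PTR5 and ABCG20 the 10 min array of replicate 2 was already close to the 30 min arrays. ABCG9, the potassium channel KAT2, the aquaporin TIP2;3, the sugar carrier STP11, the amino acid exporters UMAMIT10 and UMAMIT27, G3Pp3, UPS4 and the nucleoside carrier ENT4 had rises between 0.62 and 0.97 over both flanks. Of the 13 transport genes 2 passed 0.6 in both flanks on each replicate, and 4 were kept. Among genes of nutrient and sugar status, PHO2, the ubiquitin-conjugating enzyme that limits phosphate uptake, had 3.02 and 2.99 at 10 min and 4.02 and 3.65 at 30 min in the lower flank and 2.57 and 2.73 at 10 min and 3.99 and 3.76 at 30 min in the upper. It was among the 6 brightest members, and its spot on the 30 min array of replicate 1 carried an outlier flag. ASPGB1, an asparaginase, had rises of 0.98 in the lower flank and 1.01 in the upper, and GBF6, a bZIP factor whose translation is repressed by sucrose, had rises of 0.72 in the lower flank and 0.82 in the upper. BAM5, a beta-amylase, had -1.72 and -1.93 at 10 min and -0.83 and -0.41 at 30 min in the lower flank and -1.46 and -1.61 at 10 min and -1.11 and -0.67 at 30 min in the upper, with the order of the flanks turned between the times. AT5G18840, annotated as a sugar transporter, had the same turn, with -2.22 and -2.25 at 10 min and -0.64 and -0.36 at 30 min in the lower flank and -1.78 and -1.83 at 10 min and -1.04 and -0.79 at 30 min in the upper. ATSPS4F, a sucrose-phosphate synthase, had rises of 0.65 in the lower flank and 0.82 in the upper. Of the 5 genes of nutrient and sugar status 2 passed 0.6 in both flanks on each replicate, and 3 were kept. The remaining 4 of the 6 brightest were AT3G25290, AT3G24100, AT1G78020 and the B3 factor AT3G53310, with rises between 0.74 and 1.01. The spot of AT3G24100 carried an outlier flag on 1 array.

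Defence genes among the members, besides THI2.1, were PAD3, which completes camalexin, BAP1, SIB2, EARLI1, UPI, AT4G10500 and TCH2. TCH2, a touch-induced calmodulin-like gene, had 1.62 and 1.59 at 10 min and 2.37 and 2.06 at 30 min in the lower flank and 1.46 and 1.70 at 10 min and 2.33 and 2.27 at 30 min in the upper. It was the only one of 28 measured touch and rapid stress genes among the members, and the median rises of that list were -0.21 and -0.18. TCH3 of the same list, with -1.54 and -1.20, was its only gene lower by 0.6 or more in both flanks. No member stood on the list for salicylic acid and defence (19 measured). Of the wall genes, LAC3, a laccase, had -1.74 and -1.72 at 10 min and -0.72 and -0.19 at 30 min in the lower flank and -1.85 and -1.66 at 10 min and -1.44 and -0.66 at 30 min in the upper. COBL10 had -2.50 and -0.94 at 10 min and -0.79 and -0.66 at 30 min in the lower flank, with 1 low array. CEL2, XTH29, CSLB02, RRA2 and FLA6 had rises between 0.60 and 0.86. Of the 8 defence genes 5 passed 0.6 on each replicate and 1 was kept, and of the 7 wall genes 2 passed and 1 was kept.

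**Figure D4:**
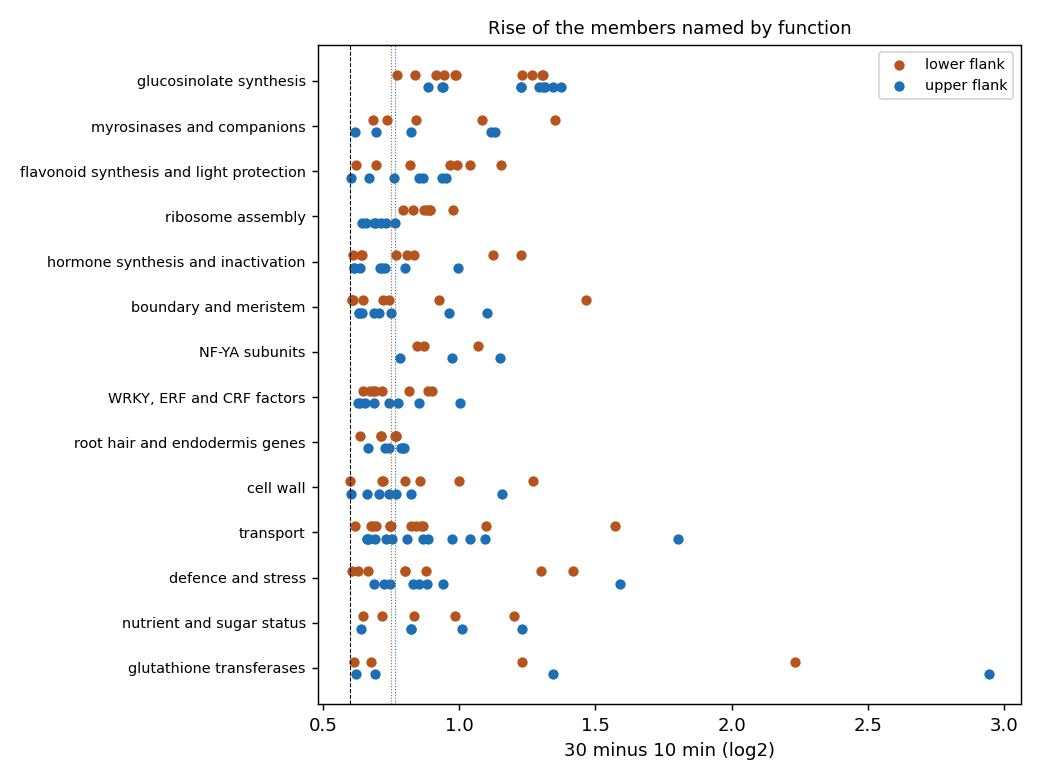
Rises (log2, horizontal axis) of the members named by function are shown group by group, with the lower flank in brown and the upper flank in blue; the dashed line marks the threshold of 0.6 and dotted lines the medians of all members (0.75 and 0.76). All points lie at or over the threshold by the rule, the 7 ribosome assembly genes lie further right in the lower flank, and the farthest points belong to GSTZ2.

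Some members are best known from roots. CASP1, which builds the Casparian strip of the root endodermis, had -0.12 and 1.29 at 10 min and 1.17 and 1.28 at 30 min in the lower flank and -0.17 and 1.32 at 10 min and 1.14 and 1.35 at 30 min in the upper. MYB36, the factor that activates it, had -2.23 and -1.38 at 10 min and -1.097 and -1.09 at 30 min in the lower flank, and FEZ, a root cap NAC factor, had -0.036 and 0.57 at 10 min and 0.99 and 1.08 at 30 min. In these 3 genes the 10 min array of replicate 1 was low in both flanks and the other 3 arrays lay closer together. SHV2, a COBRA-like protein of root hairs, had -1.03 and -1.30 at 10 min and 0.14 and -0.95 at 30 min, with the 30 min array of replicate 1 high. COW1 and LRL2, also of root hairs, had rises of 0.77 in the lower flank and 0.73 in the upper and of 0.71 in the lower flank and 0.79 in the upper. Of these 6 genes 1 passed 0.6 in both flanks on each replicate, and 1 was kept. On the root marker list 9 of 13 genes on the array were well above background throughout, SHV2 was the only member, and 5 had a mean rise above 0. The summed level of the 9 was 26.0 to 27.7 times the channel median at 10 min and 28.1 to 30.8 times at 30 min. FER1, a ferritin gene, SHR and PHT1;1 made up 93.6% of that sum, and the mean levels of SHV2 and the other 5 lay below the channel median. On the flower, pollen and seed list 8 of 17 were well above background, LFY was the only member, and the sum was 1.61 to 2.02 times the channel median at 10 min and 2.25 to 2.44 times at 30 min. LFY, which is part of the sum, was the brightest of the 8, and the mean levels of the other 7 lay below the channel median. The floral organ markers AG, AP3 and PI and the root markers RHD2, PLT1, PLT2 and IRT1 were not well above background on all arrays. No member stood on the lists for epidermis (19 measured), xylem and fibre (16), phloem and cambium (13) or photosynthetic tissue (20), whose genes on the array were well above background throughout apart from FT and SWEET11 of the phloem list. The photosynthetic list had median rises of -0.43 and -0.25, and its sum went from between 3137 and 4332 at 10 min to between 2794 and 3434 at 30 min. Members stood on 11 of the 25 lists used. Besides those given here, the 5 others held 1 member each. They were those for gibberellin (GA2OX8, 18 measured), brassinosteroid (BAS1, 15), cytokinin response (CRF2, 14), nitrate (NRT1.1, 15) and jasmonate and wounding (CYP94B3, 24). Their median rises in the lower and upper flank were -0.06 and -0.04, -0.23 and -0.29, -0.17 and -0.28, -0.13 and 0.245, and -0.23 and -0.22 in that order. Lower by 0.6 or more in both flanks were 0, 1, 0, 2 and 2 of their genes. Among the 14 lists without a member, that for dark and sugar starvation had 17 of 23 genes lower by 0.6 or more in both flanks. The part of tissue makeup in the members' rises was not tested.

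The difference between the flanks did not enter the choice of members, and it was tested at each time as the within-array ratio of lower over upper flank with limma over 19272 gene probes. It asks whether genes that were higher at 30 min in both flanks also differed between them. At 10 min none of the 385 members passed an adjusted p of 0.05, and none of all probes did (0%). The smallest adjusted p of a member was 0.559, from AT4G21870, a small heat shock protein gene with 0.23 ± 0.037 (SE, n = 2 arrays). Each SE given for a flank difference is limma's moderated standard error, and n counts the arrays in the mean. Its spread comes from the arrays of both times and is drawn toward that of other probes. An unadjusted p under 0.05 was reached by 12 members (3.12%), against 5.92% of all probes. The members' flank differences at 10 min had a median of 0.0042 and ran from -0.18 to 0.33, and 95.6% lay within 0.1 of 0, against 91.7% of all probes tested. The highest was that of PHO2, with 0.432 and 0.236 on the 2 arrays, a mean of 0.33 ± 0.061 (SE, n = 2 arrays) and an adjusted p of 0.603 in limma.

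At 30 min 2 members passed, BCAT4 and FAF2, which is 0.519% of the members, against 0.488% of all probes. BCAT4 was higher in the upper flank, with log2 ratios of -0.527 and -0.412 on the 2 arrays and a mean of -0.47 ± 0.049 (SE, n = 2 arrays, adjusted p = 0.0465 in limma). FAF2 was higher in the lower flank, with 0.365 and 0.426 and a mean of 0.40 ± 0.042 (SE, n = 2 arrays, adjusted p = 0.0469 in limma). Both calls were narrow in this fit, which had no term for dye orientation. From the deposited processed signals the means were -0.50 and 0.42 and the adjusted p 0.110 and 0.120. LAC3 with 0.38 ± 0.049, ELIP2 with 0.32 ± 0.061, AT5G37970 with -0.28 ± 0.051, AT2G25450 with -0.25 ± 0.035 and NRT1.1 with -0.25 ± 0.054 (SE, n = 2 arrays) had adjusted p between 0.0736 and 0.195 in limma and did not pass. YUC6 with 0.22 ± 0.052 had an adjusted p of 0.223. The median over members was -0.013, and 83.9% lay within 0.1 of 0, against 84.5% of all probes. Unadjusted, 47 members (12.2%) had a p under 0.05, against 11.4% of all probes.

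The replicate number is also the dye orientation. The fit above had no term for it, so what differs by orientation stays in its spread and standard errors. The standard error of BCAT4 at 30 min was 0.049 without the term and 0.017 with it. With the orientation as a term in the fit, 47 members (12.2%) passed at 10 min, against 22.1% of all probes. At 30 min 100 (26.0%) passed, against 33.0%. Of the 100, 52 were higher in the lower flank and 48 in the upper. They included BCAT4 (adjusted p = 3.7e-06 in limma), FAF2 (8.7e-06), LAC3, ELIP2, AT2G25450, NRT1.1, AT5G37970, YUC6 and TAR2. In that fit all 7 ribosome assembly genes passed with the lower flank higher at 30 min, by 0.060 to 0.198, and 7 of the 10 glucosinolate genes passed, with values from -0.47 to -0.077 in the members concerned. BAS1 (0.201) passed with the lower flank higher, and so did F3H (0.16), CHIL (0.13) and ELIP1 (0.12). These genes were gathered into groups with their values known, so the counts describe the groups and are not a test of them. The share of members called was below that of all probes at both times in this fit. The members were dim for the most part, and the offset of 50 used for these ratios shrinks those of dim probes. The part of this in the lower shares, here and at 10 min above, was not tested.

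**Figure D5:**
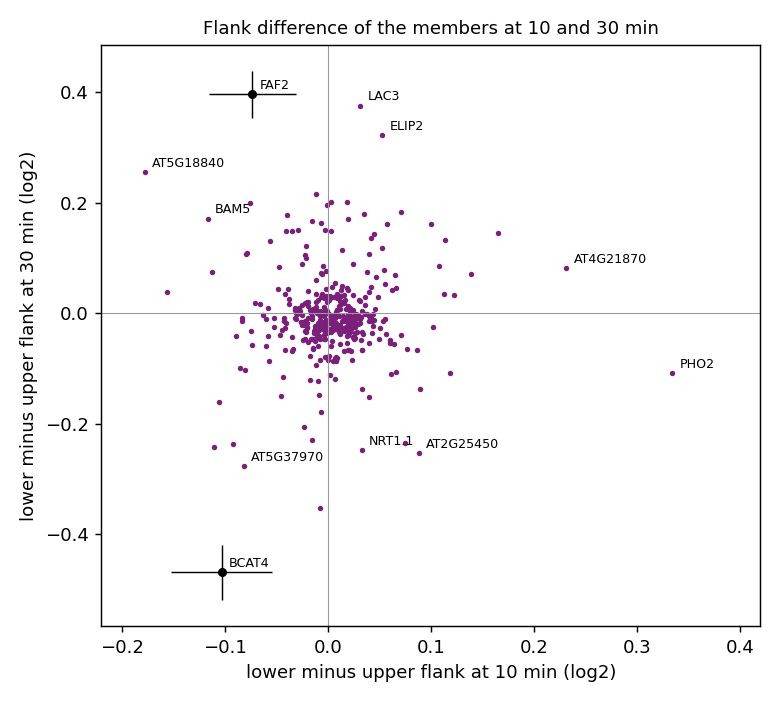
The flank difference of each member (log2 of lower over upper flank, mean of 2 arrays) at 10 min (horizontal axis) is plotted against that at 30 min (vertical axis), with standard errors drawn for BCAT4 and FAF2. Most members lie within 0.1 of 0 on both axes, BCAT4 is lowest and FAF2 highest at 30 min, and PHO2 is highest at 10 min.

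By position in the genome the members were spread over all 5 chromosomes, with 84, 51, 68, 51 and 97 on chromosomes 1 to 5, or 1.77% to 2.36% of the measured probes of each. In the order of protein-coding genes in RefSeq's TAIR10.1 annotation 9 pairs of members were direct neighbours. The next gene was well above background for 225 members, and in 9 of these (4%) it was a member, against 1.88% of 11517 genes in the same position. This count was not tested. The pair ELIP2 and AT4G14695, of a family of mitochondrial pyruvate carrier proteins, had rises of 1.15 in the lower flank and 0.87 in the upper and of 1.07 in the lower flank and 0.82 in the upper in that order. CHIL lay beside AT5G05280, a RING finger gene with rises of 0.96 in the lower flank and 0.65 in the upper, and COW1 lay beside GBF6. AT5G37970 lay beside AT5G37980, annotated as an oxidoreductase, with rises of 1.14 in the lower flank and 0.98 in the upper. CEL2 and the pectinesterase gene AT1G02810, and DRP4C and DRP4A, were pairs of like kind or of 1 family. AGL53 lay beside CDC20.3, whose 10 min arrays stood far apart, with -2.77 and -1.200 at 10 min and -0.85 and -0.77 at 30 min in the lower flank. The other 2 pairs were PDLP8 with AT3G60730 and AT5G55340 with AT5G55350. Whether the transcripts of neighbours are separate was not examined.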

How the data were processed

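The labels' protocols state that 500 ng of total RNA per flank was amplified and labelled with an Agilent kit. Per the file headers, Agilent's Feature Extraction (version 8.1.1.1) read the scans. Intensity was deposited, per the file headers, as processed signals (background-subtracted and dye-normalized by the authors' scanner software) and mean and background signals as measured. Deposited flags, other values of 0 or 1, mark spots well above background, saturated or outlying. The authors' series table holds log10 ratios. These matched the deposited log10 ratio (replicate 1) or the ratio of processed signals (replicate 2), lower over upper flank, within 0.005, with column medians of 0, -0.00128, 0 and -0.00264.

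Membership came from processed signals on the log2 scale, without dropping outlier spots. Flank ratios were computed from the mean signals with normexp (offset 50) and loess in limma 3.58.1 under R 4.3.3. Control spots (1075) and outlier spots (124, 120, 451 and 152 gene probes on the arrays, by time and replicate) were left out of the ratios. All 4 arrays were fitted with a mean per time and no term for dye orientation. Benjamini-Hochberg adjustment ran across 19272 probes whose signal cleared background on both arrays for some flank and time. An outlier spot leaves its probe with 1 array at that time. Each mean otherwise covers 2 arrays. Standard errors are limma's moderated ones, with 1 spread per probe over both times, drawn toward that of other probes. If the swapped arrays hold the same RNA, these errors hold technical spread only. The numbers pair the arrays by dye orientation, per the labels: deviations from the time means correlated at 0.869 between same-numbered arrays. Without a term for orientation these shared deviations stay in the spread and the standard errors. Between replicates the flank ratios correlated, across probes, at -0.0325 for 10 min and 0.454 for 30 min. All 4 arrays read 18487 to 19553 of 21500 gene probes well above background per channel.

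Of 20269 probes naming 1 locus 20187 were found in RefSeq's table (TAIR10.1), used for names and gene order only. A list symbol that RefSeq gives to several loci was assigned to the locus meant in that list. The build behind the probe annotation is not stated in any source used, and no probe or promoter sequence was used. The members, the 25 gene lists and the alternatives were chosen with earlier results of these data known. The functional groups were put together after the members' values were seen. Named with values are the 12 members with the largest mean rise, those called between the flanks, the 6 with the largest gap between their rises, the 6 brightest, those nearest to the threshold, members on a list, and families with 2 or more members. Up to 4 further genes of a list are those with the largest mean change. Other members, and HY5, are named for their function or for their flank difference, after their values were seen.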

Additional observations from a re-analysis of the deposited data

Results flagged for a closer look

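In 13 of the members reported by name the flank difference had opposite signs at the 2 times on every array, and this change between the times was not tested. In 9 of them it went from the upper to the lower flank. FAF2 went from -0.074 (log2 lower over upper flank, mean of 2 arrays) at 10 min to 0.40 at 30 min. BAM5 went from -0.12 to 0.17, AT5G18840 from -0.18 to 0.26 and JAL23 from -0.11 to 0.075. Of the ribosome assembly genes, SWA1 went from -0.075 to 0.198, OLI2 from -0.079 to 0.11, AT3G21540 from -0.057 to 0.13 and AT4G26600 from -0.011 to 0.060. CRF1 went from -0.0096 to 0.023. The opposite order was seen in AT2G25450, from 0.088 to -0.25, in AT5G56840, from 0.075 to -0.24, in CYP71A25, from 0.071 to -0.040, and in IAGLU, from 0.026 to -0.025. Over all 385 members 18 turned from the upper to the lower flank in this way and 17 from the lower to the upper. No count over all probes stands beside these numbers, so they do not set the members apart. Across probes the flank ratios of the 2 arrays of 10 min correlated at -0.0325. Those 2 arrays differ in dye orientation, and deviations shared by same-numbered arrays correlated at 0.869 between the times. The correlation at 10 min therefore also holds what differs by orientation. Whether like signs on both arrays mark a flank difference at 10 min was not tested. A difference between the flank differences of the 2 times corresponds to a difference between the rises in the 2 flanks, which are the values that chose the members.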

How the results depend on the processing

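The number of members was 385. It was 102 (94 of them members) with normexp at an offset of 50, loess and Aquantile, 182 (173) with an offset of 16 and 310 (298) with an offset of 0, the last 2 chosen after seeing the data. A constant added to both signals shrinks the log ratio of dim probes by construction. Thresholds of 0.5 and 0.8 gave 725 and 121. Leaving out a replicate gave 395 to 959, with 156 members kept without replicate 1 and 341 without replicate 2. The other 6 settings gave 355 to 523, of which the removal of every probe with an outlier flag (377) was added after seeing the data.

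At 10 min limma called 0 of all probes and 0 members. The replicate block (dye orientation) gave 4262 and 47, the arrays of 10 min alone 120 and 2, and leaving out 1 array 48 to 120 and 0 to 2. At 30 min it called 94 of all probes and 2 members. The replicate block gave 6351 and 100, the arrays of 30 min alone 620 and 19, and leaving out 1 array 274 to 620 and 6 to 19. Deposited processed signals gave 47 and 0, the authors' ratios of the series gave 47 and 0, normexp with an offset of 16 gave 45 and 0, and median centring gave 0 and 0. Testing all probes without a filter on dim ones gave 72 and 0, with more probes in the adjustment. The cause of these changes was not tested. Where 1 array of a time was left out, the lone array was assumed to vary like the others. BCAT4 and FAF2 lost their calls in the 5 settings that gave 0 members and kept their direction in all 13. Among the other 36 flank differences recomputed by gene, 1 changed sign: CYP71A25 at 10 min had -0.055 with median centring. The slide as a block was not run, since no slide held more than 1 array. Many members had low signal, with 41.3% of them among the dimmest 25% of probes. The part of low signal in the members' rises was not tested.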
